A study of Mus musculus with 36 samples.

Results

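The genes described here encode the nuclear subunits of the mitochondrial respiratory chain and of ATP synthase, with some assembly factors of complex I. They were taken from both arrays of the Affymetrix MOE430 set as every probe set that the platform annotation gives exactly 1 symbol starting with Ndufa, Ndufb, Ndufc, Ndufs, Ndufv, Uqcr, Atp5 or Cox4 to Cox8, or the symbol Sdha, Sdhb, Sdhc or Sdhd. This choice used names only and found 179 of 45265 probe sets. They stand for 90 of the 18193 genes with a single symbol. Assigned by symbol, 36 count as complex I, 8 as complex I assembly factors (the Ndufaf genes) and 4 as complex II. Complex III has 8, complex IV has 17 and complex V has 17. The 36 include Ndufa4, which is now placed with complex IV, and its paralog Ndufa4l2. A further 10 probe sets that name such a gene together with another symbol were left out.

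The respiratory chain sits in the inner mitochondrial membrane. Complexes I and II take electrons from NADH and succinate, complex III passes them to cytochrome c and complex IV hands them to oxygen, while complexes I, III and IV pump protons that drive ATP synthesis by complex V. Complex I, III, IV and V join nuclear-encoded subunits to a few that mitochondrial DNA encodes, whereas complex II is wholly nuclear. Several complex IV subunits exist in a widely expressed form and in a form known from heart and skeletal muscle, lung or testis.

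Fibroblasts from fetuses of CD1 mice at gestation day 19 were expanded in culture, plated on gelatin-coated glass and then held for 14 h either in laminar flow that sheared them at 0.1 dyn/cm2 or in static medium. The 6 groups were tendon flow, tendon static, cornea flow, cornea static, skin flow and skin static, with 3 libraries each, and each of the 18 libraries was hybridised to chip A and chip B. All groups share the mouse strain, the age, the expansion in serum and the low-serum medium of the experiment, and the labels name no altered gene. The series' design calls the replicates biological, but no label names separate fetuses or litters, so the p-values measure the spread between these libraries, which may be technical in part. The description of the tendon flow libraries says cornea, whereas their titles, source names and scan records say tendon, and they were used as tendon.

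Values are log2 RMA values, which the authors deposited for each chip separately, and 1 unit is a 2-fold difference. With 3 arrays a group, their number sets the precision. Summed on the linear scale, the 12 fibroblast markers examined (collagens, vimentin, Thy1, decorin and others) lay between 15.84 and 16.25 on the log2 scale in every library, and the summed level of 20 skeletal muscle markers was 11.90 to 12.56 in skin flow and 12.11 to 12.38 in skin static libraries, against 11.15 to 11.62 in tendon and cornea libraries. Skeletal muscle actin Acta1 was the one muscle marker that passed the test between static tendon and static skin (10.44, 10.96 and 9.90 in tendon, 11.63, 11.67 and 12.06 in skin), while 12 of the 20 markers had higher values in tendon (median difference 0.01). Among the fibroblast markers, fibronectin (Fn1) passed the test as lower in static tendon than in static skin. Thy1, Fap and decorin (Dcn) passed as lower in static cornea than in static skin. Of all 12, 3 had higher values in static tendon than in static skin (median difference -0.34) and 6 in static cornea (median 0.00). The keratin Krt19, an epithelial marker, was higher in static cornea than in static skin by 0.88 and fell by 0.58 under flow on average. Of the 12 keratinocyte and corneal epithelium markers, 3 had higher values in static cornea (median difference -0.09) and 3 under flow (median -0.04). The part of other cell types in the results below was not tested. Skin static 2, skin flow 2, cornea static 1 and tendon static 3 stood apart from the other libraries in many members, and medians of comparisons that use them are given without them as well. Because these are bulk samples, fewer cells of a type and less RNA per cell cannot be told apart.

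Promoter sequences of 4 members are shown with the motifs counted over all of them. Of the 90 genes, 74 had an entry in the RefSeq promoter table (GRCm38.p6), a window from 250 bases before to 50 bases after the start. The binding motif of the nuclear respiratory factor NRF-1, a regulator of many respiratory chain genes, was searched as GCGCNTGCG on both strands, where a palindromic stretch can match on each, and found in 24 of the 74 members (32.4%) and in 7.12% of all 27025 genes in the table. The ETS motif CCGGAAG, which the GABP factor also binds, was found on either strand in 19 members (25.7%) and in 9.93% of all genes. The TATA letters TATAAA were found in 8 members (10.8%) and in 15.7% of all genes. These matches are letters in a window and not measured sites. The 150 bases before the start are printed below for these 4 members. Ndufaf1 and Ndufb11 have flow and tissue differences that are described later, none of which passed the test. Atp5k is the member with the narrowest range over the libraries, and Atp5h holds both of the first 2 motifs. Capitals mark the NRF-1 and ETS letters.
Ndufaf1 (chr2:119662835-119662984, minus strand): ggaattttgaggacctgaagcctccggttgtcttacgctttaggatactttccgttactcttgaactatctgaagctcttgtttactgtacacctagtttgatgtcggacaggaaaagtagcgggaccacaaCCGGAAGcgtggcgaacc
Ndufb11 (chrX:20617620-20617769, minus strand): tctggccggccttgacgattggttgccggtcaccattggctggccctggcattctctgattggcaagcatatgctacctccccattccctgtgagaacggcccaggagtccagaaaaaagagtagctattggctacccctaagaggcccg
Atp5k (chr5:108434400-108434549, minus strand): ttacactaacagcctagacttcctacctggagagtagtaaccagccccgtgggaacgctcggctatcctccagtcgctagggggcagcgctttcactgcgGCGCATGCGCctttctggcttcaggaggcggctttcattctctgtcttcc
Atp5h (chr11:115419920-115420069, minus strand): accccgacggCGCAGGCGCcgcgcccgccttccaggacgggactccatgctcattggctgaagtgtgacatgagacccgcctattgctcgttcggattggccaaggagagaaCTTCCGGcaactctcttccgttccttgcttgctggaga

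Ranges of the respiratory chain genes were taken over the 18 libraries and over the 6 group means, without the same ranges for all genes. The range between the lowest and the highest library had a median of 0.75 over the 90 genes, from 0.36 for Atp5k, subunit e of ATP synthase, to 2.05 for Ndufc2, an accessory subunit of complex I. The range between the 6 group means had a median of 0.28 and reached 0.67 for Ndufa6, another accessory subunit. The main fit used all libraries and no block for the culture day. In it no member passed the limma test at an adjusted p below 0.05 in any of the 11 comparisons. A fit that blocks on the culture day called 1, Ndufaf7, for the average flow response. Adjusted p-values are Benjamini-Hochberg values over all 18193 genes, and counts at an unadjusted p under 0.05 are given beside each comparison.

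A set of 10 main subunits, at least 1 from each complex, was followed gene by gene. It is a choice and not the full list of core subunits. Ndufs1, which carries iron-sulphur clusters of complex I, ranged between 10.09 and 10.92, and Ndufv1, which binds NADH, between 10.70 and 11.52. Ndufs3, a further core subunit of complex I outside the set, ranged more widely, between 10.23 and 11.60. The flavoprotein Sdha of complex II ranged between 10.57 and 11.54, and its iron-sulphur partner Sdhb between 11.41 and 11.79. Differences between groups lay within the spread of replicates for Sdha, which averaged 11.26 ± 0.24 in tendon flow, 11.16 ± 0.51 in tendon static, 11.12 ± 0.28 in cornea flow, 11.16 ± 0.15 in cornea static, 11.13 ± 0.36 in skin flow and 11.13 ± 0.17 in skin static libraries (SD, n = 3 each). In complex III the Rieske protein gene Uqcrfs1 ranged between 10.72 and 11.42, and in complex IV Cox4i1 and Cox5a ranged between 12.34 and 12.89 and between 12.38 and 12.85. The catalytic head of ATP synthase is built from the products of Atp5a1, at 12.03 to 12.64, and Atp5b, at 11.37 to 11.93.

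For flow against static, averaged over the 3 tissues, the main fit called 0 of 90 members, against 0.797% of all genes. The question is whether mechanical stimulation by flow altered the transcripts of the oxidative machinery. Member differences ran between -0.22 and 0.31 with a median of -0.01, equal to the median of all genes, and the median was -0.05 without cornea static 1, -0.03 without skin static 2 and 0.00 without tendon static 3 or skin flow 2. The 95% interval lay within ±0.58, a 1.5-fold difference either way, for 89 of the 90 genes and for 17134 of all 18193. The exception among the members was Ndufc2 (difference -0.14, interval -0.70 to 0.42). At an unadjusted p under 0.05 there were 3 members, 2 higher and 1 lower under flow, against 10.8% of all genes. In the set of 10 main subunits the differences ran between -0.16 for Uqcrc1 and 0.06 for Ndufv1. The complex I core subunits outside it gave 0.14 (Ndufs7), 0.00 (Ndufv2), -0.11 (Ndufs3) and -0.13 (Ndufs8).

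**Figure D1:**
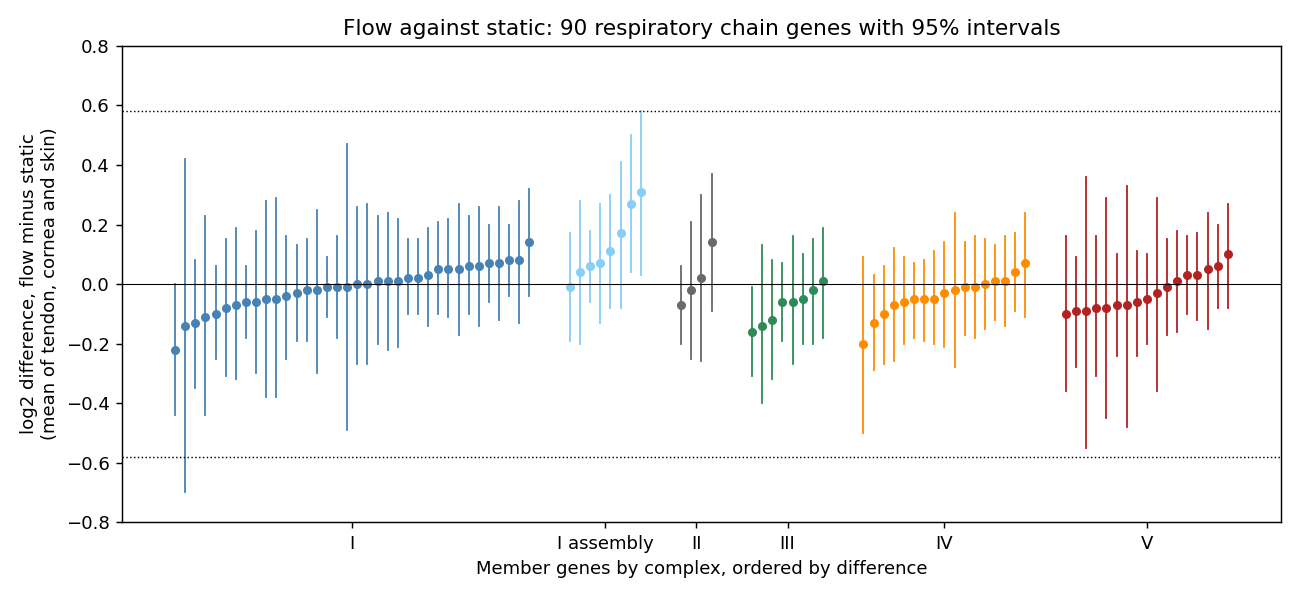
Log2 difference of flow minus static, averaged over tendon, cornea and skin, for each of the 90 genes (points). Lines are 95% intervals from limma without a culture-day block. Genes are grouped by complex along the horizontal axis and ordered by size. Dotted lines mark ±0.58; only the interval of Ndufc2 in complex I crosses one, and the 8 assembly factors lie between -0.01 and 0.31.

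The genes with the most positive flow differences were not subunits but assembly factors of complex I. Of the 8 Ndufaf genes, 7 had a positive difference, with a median of 0.09, whereas in complex III 7 of 8 subunits had a negative one (median -0.06), against 45.8% of all genes with a positive difference. The medians of complex I, II, IV and V were -0.01, 0.00, -0.03 and -0.05. Ndufaf1, a chaperone of the membrane arm of complex I, measured 9.00, 8.47 and 8.56 in tendon flow against 8.63, 8.68 and 8.27 in tendon static libraries. It measured 8.70, 8.56 and 8.25 in cornea flow against 7.97, 8.31 and 7.96 in cornea static libraries. In skin it measured 8.86, 8.24 and 8.27 under flow against 8.40, 8.11 and 8.15 in static culture. The flow and static values overlapped in each of the tissues, and the mean difference was 0.27 ± 0.11 (SE; limma adjusted p = 0.36). The libraries at 8.70 or more were the 3 flow libraries of replicate 1, which came from the first of 2 scan batches. A fit that takes the scan batch as a block gave 0.23 (adjusted p = 0.24).

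Ndufaf7, a methyltransferase that acts on complex I during its assembly, had a similar pattern. Its probe set is of a type whose name marks possible cross-hybridisation. It measured 8.04, 7.74 and 7.62 in tendon flow against 7.65, 7.77 and 7.15 in tendon static, 7.76, 7.45 and 7.39 in cornea flow against 7.01, 7.61 and 7.03 in cornea static, and 8.00, 7.21 and 7.84 in skin flow against 7.58, 7.11 and 7.38 in skin static libraries. Here too the states overlapped in every tissue, with a mean difference of 0.31 ± 0.13 (SE; limma adjusted p = 0.39). Ndufaf5 followed with 0.17 (adjusted p = 0.64). Of the 43 measured assembly factors of the chain outside the Ndufaf genes, 23 had a positive flow difference, with a median of 0.04, and 0 passed the test.

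Flow and static libraries of the same culture day resembled each other in these genes. The scan records give such pairs for replicates 2 and 3 of tendon and of skin. In cornea they pair flow 2 with static 1 and flow 3 with static 3. The replicate 1 pairs of tendon and skin share a session with no noted day. They were counted as pairs of 1 culture day too, which makes 8. The median absolute member difference between flow and static of 1 culture day was 0.10 to 0.27 over the 8 pairs (median 0.11), whereas between replicates of 1 group it was 0.11 to 0.36 over 18 pairs (median 0.19). A fit that blocks on the culture day called 1217 genes for the average flow response (6.69%) in place of 145 (0.797%). Of the members it called 1, Ndufaf7, at 0.33 ± 0.07 (SE; limma adjusted p = 0.016). Ndufaf1 came to 0.28 with an adjusted p of 0.054 in that fit. Ndufaf7 was also called when tendon static 3 was left out of it (0.30, adjusted p = 0.028). Ndufaf7 was higher under flow in 7 of the 8 pairs, by 0.10 to 0.47, and differed by -0.04 in the tendon pair 2.

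Of the members, 2 (2.22%) had lower values under flow in each of the 8 pairs, a share close to the 2.38% of all genes, and 0 had higher values in each, against 4.3% of all genes. Both of the lower ones belong to complex III. Uqcrc1, a core protein of complex III, measured 10.68, 10.74 and 10.96 in tendon flow against 10.93 ± 0.07 (SD, n = 3) in tendon static, 10.62, 10.95 and 11.01 in cornea flow against 11.11, 11.05 and 11.17 in cornea static, and 10.90, 10.81 and 11.05 in skin flow against 10.97, 10.88 and 11.14 in skin static libraries. The cornea groups did not overlap, and the tendon and skin groups did. Within pairs the difference was -0.04 to -0.25, and the mean difference of all libraries was -0.16 ± 0.07 (SE; limma adjusted p = 0.44). Uqcrq, an accessory subunit, differed by -0.07 to -0.34 within pairs, but its probe set with the highest signal gave 0.00 in skin in place of -0.20.

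**Figure D2:**
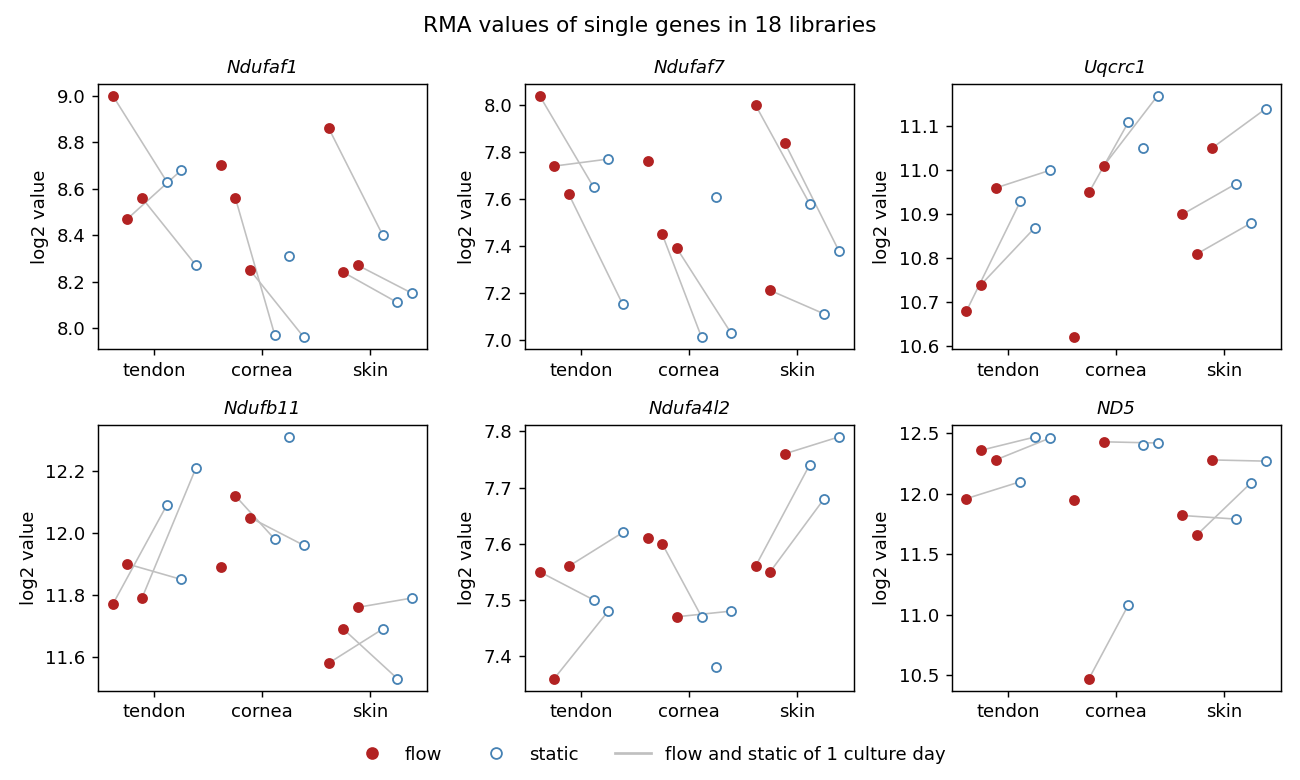
RMA log2 values (vertical axes) of 5 members and of the mitochondrially encoded ND5 in each of the 18 libraries, by tissue, with flow as filled and static as open points; grey lines join flow and static of 1 culture day. The lines of Ndufaf1 and Ndufaf7 fall towards static in 7 of 8 pairs, those of Uqcrc1 climb in all 8, and ND5 is low in 1 cornea pair.

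Within single tissues the flow comparisons called 0 of 90 members in tendon (0.0495% of all genes), cornea (0.022%) and skin (0.0275%), and with the culture day as a block also 0 in each (1.19%, 0.363% and 0.407% of all genes). At an unadjusted p under 0.05, 1 member was lower in tendon (4.08% of all genes in both directions), 1 was higher in cornea (5.18%) and 0 passed in skin (2.8%). In tendon 65 of the 90 members were below static and 25 above, with a median of -0.07, while 48.5% of all genes were above. Negative differences were found for 27 of 36 complex I subunits, 6 of 8 in complex III, 13 of 17 in complex IV and 16 of 17 in complex V, whereas 3 of 4 complex II subunits and 6 of 8 assembly factors were positive. Within the scan batches the median of all members was -0.07 and -0.08. By culture-day pair it was -0.07 in tendon pair 1, 0.04 in pair 2 and -0.18 in pair 3. In these pairs 29, 53 and 23 of the 90 members were above static. These members share their libraries, and the median was -0.02 without tendon static 3 and -0.15 without tendon static 2. The most negative tendon difference belonged to Ndufab1, the mitochondrial acyl carrier protein that complex I also holds, with 7.73, 7.76 and 7.37 under flow and 8.20, 7.80 and 8.36 in static culture. Its flow libraries all lay below its static ones (-0.50, limma adjusted p = 1), but another probe set of Ndufab1 with a higher signal gave 0.08.

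In cornea 46 members were above static and 44 below (median 0.00), with 50% of all genes above, and in skin 52 were above and 38 below (median 0.03), with 44% above. The cornea median was -0.09 without cornea static 1, and the skin median was 0.06 without skin flow 2 and -0.01 without skin static 2. The largest cornea differences were 0.43 for Ndufaf1, 0.35 for the membrane anchor Sdhc of complex II and 0.31 for Ndufb6, and the most negative were -0.25 for each of Uqcrc1, Cox4i2, Uqcr10 and Atp5g2. In skin Ndufaf7 (0.33), Ndufa6 (0.28) and Ndufs7 (0.26) led, and Uqcrq (-0.20), Cox4i2 (-0.14) and Ndufa4l2 (-0.11) were at the other end. Tendon had Ndufaf7 (0.27), Ndufaf5 (0.23) and Ndufaf1 (0.15) as its most positive and, after Ndufab1, Uqcr10 (-0.38) and Cox6b2 (-0.35) as its most negative members. None of these passed the test, and the smallest adjusted p of any member was 0.96 in the fit without blocks. Blocking by culture day gave smallest limma adjusted p-values of 0.13 (Ndufab1 in tendon), 0.13 (Sdhc in cornea) and 0.45 (Ndufaf7 in skin). The test of whether the 3 flow responses differ called 0 members and 0% of all genes. At an unadjusted p under 0.05 it held 0 members and 0.682% of all genes.

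Between static tissues, most respiratory chain transcripts had slightly higher values in tendon and cornea than in skin, with no single gene past the threshold. For static tendon against static skin 0 of 90 members were called, against 1.28% of all genes, while 75 of the 90 (83.3%) had a positive difference, against 50.9% of all genes. The median difference was 0.14 over the members, 0.21 for complex I, 0.20 for its assembly factors, 0.06 for complex II, 0.08 for complex III, 0.10 for complex IV and 0.15 for complex V, beside 0.00 for all genes. At an unadjusted p under 0.05, 13 members were higher and 1 lower in tendon, against 9.03% of all genes in both directions. The libraries of both groups did not overlap for 9 members higher and 2 lower in tendon, against 5.06% and 5.55% of all genes. The median was 0.14 in the first scan batch (1 library against 1) and 0.17 in the second. Without skin static 2 the median was 0.10, and without tendon static 3 it was 0.11. Without tendon static 2, 2 of 90 members passed the test, Ndufb9 and the complex III subunit Uqcr11 (0.57 each, limma adjusted p = 0.046 and 0.031), with 1.22% of all genes called.

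**Figure D3:**
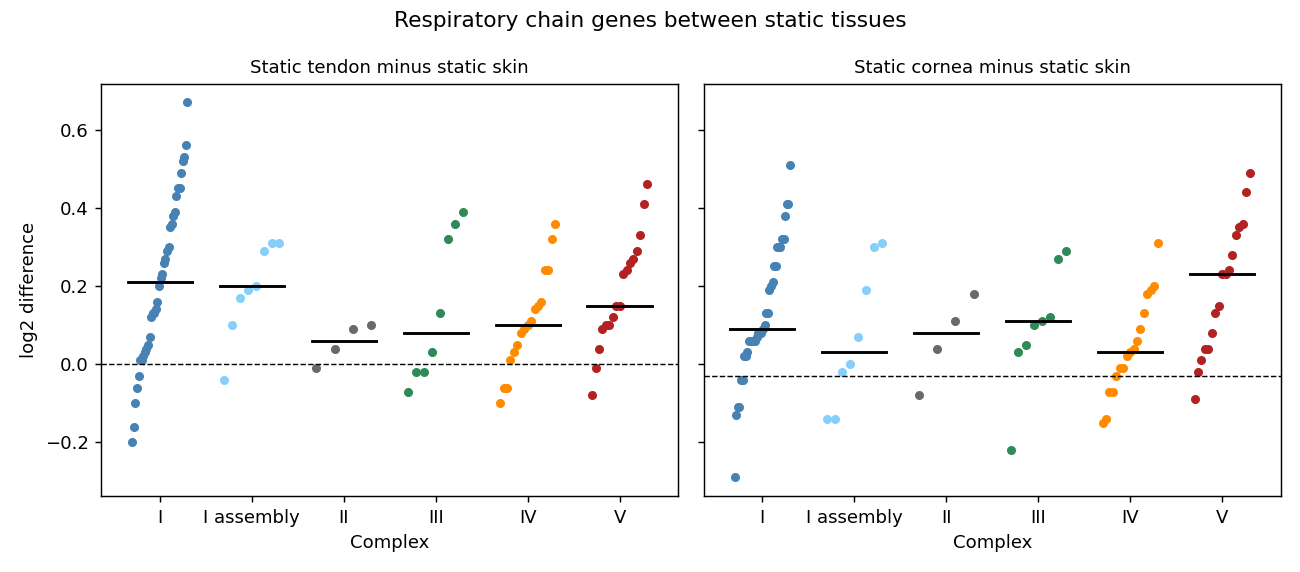
Log2 difference of static tendon minus static skin (left) and static cornea minus static skin (right) for each member gene (points), by complex; black bars are the median of a complex and the dashed line the median of all genes tested. Complex I spreads from -0.20 to 0.67 on the left, and complex V has the highest median on the right (0.23).

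The smallest p-values for tendon belonged to accessory subunits of complex I, which surround its catalytic core. Ndufb9 measured 12.08, 11.63 and 12.05 in static tendon against 11.61, 11.27 and 11.60 in static skin libraries, without overlap, a difference of 0.43 ± 0.13 (SE; limma adjusted p = 0.21). Ndufb11 measured 12.09, 11.85 and 12.21 in static tendon against 11.69, 11.53 and 11.79 in static skin libraries (0.38 ± 0.13, adjusted p = 0.24). These groups did not overlap either, and the other probe sets of Ndufb11 gave 0.40 and 0.41. Ndufc1 had 11.69, 11.65 and 11.82 in static tendon and 11.33, 10.99 and 11.28 in static skin libraries (0.52 ± 0.17, adjusted p = 0.25), and its other probe set gave 0.49.

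The largest differences by size were 0.67 for Ndufa6, 0.56 for Ndufa5 and 0.53 for Ndufb2, all accessory subunits, with overlapping groups and adjusted p-values of 0.35 to 0.72. Ndufa6 measured 10.58, 9.64 and 11.39 in static tendon against 9.99, 9.40 and 10.20 in static skin libraries, and its difference was 0.24 without tendon static 3, 0.44 without skin static 2 and 1.12 without tendon static 2. The 10 main subunits differed between the same tissues by -0.03 (Ndufs1), -0.06 (Ndufv1), 0.04 (Sdha), 0.09 (Sdhb), -0.07 (Uqcrc1), -0.02 (Uqcrfs1), 0.24 (Cox4i1), 0.01 (Cox5a), 0.04 (Atp5a1) and 0.10 (Atp5b). Other core subunits of complex I gave 0.39 (Ndufs3), 0.29 (Ndufv2), 0.03 (Ndufs7) and 0.01 (Ndufs8), so that differences of core and accessory subunits overlapped. At the low end were Ndufa4l2 (-0.20), Ndufa8 (-0.16) and Ndufa10 (-0.10).

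For static cornea against static skin, 0 of 90 members were called, against 2.36% of all genes, and 69 (76.7%) had a positive difference, against 41.4% of all genes. The member median was 0.09, and by complex it was 0.09 for complex I, 0.03 for the assembly factors, 0.08 for complex II, 0.11 for complex III, 0.03 for complex IV and 0.23 for complex V, with -0.03 for all genes. At an unadjusted p under 0.05, 4 members were higher and 1 lower in cornea, against 11% of all genes. The groups did not overlap for 12 members higher and 1 lower, against 6.41% and 8.98% of all genes. The median was 0.14 within the second scan batch, which holds all 3 static cornea libraries. It was 0.04 without skin static 2 and 0.17 without cornea static 1. In complex V, 15 of 17 subunits were positive, led by Atp5g1 (0.49), which encodes the membrane ring subunit c, and Atp5j2 (0.44), and Ndufv2 of complex I gave the largest difference (0.51). Ndufb11 was again higher, with 11.98, 12.31 and 11.96 in static cornea against 11.69, 11.53 and 11.79 in static skin libraries (0.41 ± 0.13, limma adjusted p = 0.12).

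In the main fit Ndufa4l2 gave the smallest adjusted p of any member in any comparison. It lay opposite to most members, of which 69 of 90 were higher in static cornea and 75 of 90 in static tendon. It is a paralog of Ndufa4 known from hypoxic cells, where it is induced. It measured 7.47, 7.38 and 7.48 in static cornea against 7.74, 7.68 and 7.79 in static skin libraries, and 7.50, 7.48 and 7.62 in static tendon, so that static skin lay above both other tissues without overlap. The cornea difference was -0.29 ± 0.08 (SE; limma adjusted p = 0.088) and the tendon difference -0.20 ± 0.08 (adjusted p = 0.44). Under flow its values overlapped, at 7.55, 7.36 and 7.56 in tendon, 7.61, 7.60 and 7.47 in cornea and 7.56, 7.55 and 7.76 in skin. Ndufa4 itself, which is now placed with complex IV, differed by 0.45 in tendon and 0.21 in cornea against skin.

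Between static tendon and static cornea 0 of 90 members were called, against 2.34% of all genes, with 5 higher and 2 lower at an unadjusted p under 0.05 (12.8% of all genes). In 59 members the difference was positive, against 59.2% of all genes, and the groups did not overlap for 6 higher and 3 lower, against 9.49% and 6.57%. The median was 0.07 beside 0.04 for all genes, and it was 0.16 without tendon static 2, 0.00 without tendon static 3 and -0.01 without cornea static 1. The supercomplex factor Cox7a2l gave the smallest adjusted p, with 12.48, 12.20 and 12.59 in static tendon against 11.79, 12.21 and 12.18 in static cornea libraries. Its groups overlapped by 1 library (0.36 ± 0.14, limma adjusted p = 0.26). Without tendon static 2, 1 of 90 members passed the test, Uqcr10 (0.63, limma adjusted p = 0.042), with 3.3% of all genes called. Ndufaf1 (0.45), Ndufc1 (0.44) and Ndufa6 (0.42) were the most positive members and Ndufs1 (-0.33), Ndufa8 (-0.29) and Ndufs8 (-0.29) the most negative.

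Under flow the same tissue comparisons gave small differences. The comparisons of tendon with skin, cornea with skin and tendon with cornea each called 0 members, against 0.978%, 1.87% and 1.56% of all genes. The member medians were 0.07, 0.08 and -0.02, beside 0.03, -0.01 and 0.03 for all genes, and 61, 65 and 38 of the 90 were positive, against 57.6%, 47.3% and 57.8% of all genes. At an unadjusted p under 0.05 they held 2, 3 and 2 members, against 6.38%, 8.54% and 9.05% of all genes. The all-member medians within the scan batches were 0.02 and 0.08 for tendon, and 0.05 and 0.08 for cornea, each against skin. Without skin flow 2 the tendon median was 0.01 and the cornea median 0.03. Among the chosen probe sets the largest differences were 0.35 for Ndufa4 and -0.43 for Ndufab1 between tendon and skin. They were 0.51 for Atp5g1 and -0.44 for Uqcr10 between cornea and skin, and 0.27 for Ndufaf7 and -0.46 for Ndufs8 between tendon and cornea. Ndufs8, a core iron-sulphur subunit of complex I, has 6 probe sets, and all 6 gave a negative difference in that last comparison, from -0.01 to -0.49. Other extremes had less agreement. Against skin under flow, the other probe sets of Ndufab1 gave -0.01 to -0.23 in tendon. Those of Uqcr10 gave 0.03 and -0.07 in cornea, and that of Atp5g1, at low signals, gave -0.32. Some probe sets that were not chosen gave larger differences. That of Atp5o gave 0.56 for cornea against skin and -0.58 for tendon against cornea, in place of 0.30 and -0.27. Those of Ndufa12 gave -0.27 to -0.51 for tendon against cornea, where the chosen one, at low signals, gave 0.11. These probe sets of Atp5o and Ndufa12 have names marking possible cross-hybridisation.

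None of the isoform genes of complex IV passed the test between tissues or states. Among the forms known from muscle, Cox6a2 stayed between 6.94 and 7.45, Cox7a1 between 4.85 and 5.37 and Cox8b between 6.06 and 6.67 in all 18 libraries. Their static tendon minus static skin differences were -0.06, 0.03 and 0.10, beside -1.35 for Acta1. The widely expressed Cox6a1, Cox7a2 and Cox8a ranged between 13.13 and 13.58, 12.40 and 13.21, and 10.84 and 11.26. Cox4i2, known from lung, differed by -0.13 under flow on average (interval -0.29 to 0.03), and Cox6b2, known from testis, by -0.20 (interval -0.50 to 0.09), beside 0.04 (interval -0.09 to 0.17) for its widely expressed partner Cox6b1. Cox8c ranged between 8.41 and 8.99. For 6 genes, Ndufa12, Ndufb4, Cox7a1, Cox7b2, Cox7c and Atp5c1, the chosen probe set had a median under 6, where arrays resolve little. The low signal belongs to the chosen probe set and need not hold for the gene. For Atp5c1 another probe set, with a name marking possible cross-hybridisation, measured 12.27 to 12.68. The medians and counts by complex use the chosen probe sets.

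Single libraries, and pairs of 1 culture day, stood apart across many members. Each gene was set against its own mean over 18 libraries, and the median over a complex was taken in each library. In skin static 2 this median was -0.24 for complex I, -0.35 for the assembly factors, -0.15 for complex III and -0.21 for complex V, and in skin flow 2, of the same culture day, it was -0.15, -0.18, -0.10 and -0.18. Tendon static 3 stood at the other end with 0.24 for complex I, 0.21 for complex III and 0.16 for complex IV, yet -0.24 for complex II. Of the 90 genes, 33 had their highest value in tendon static 3, and 20 had their lowest in skin static 2 and 13 in skin flow 2.

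**Figure D4:**
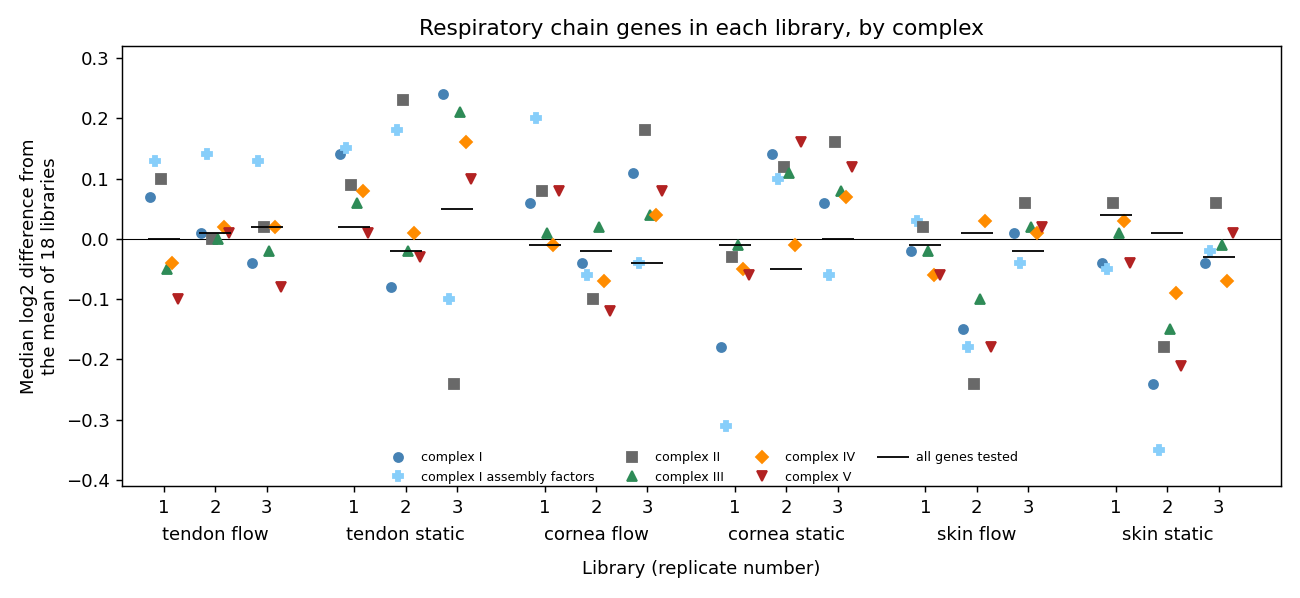
Median log2 difference from each gene's mean over the 18 libraries (vertical axis), for every complex and for all genes tested (black dashes), in each library by group and replicate number. Skin flow 2 and skin static 2 have most complexes below 0, and in tendon static 3 complex I is at 0.24 and complex II at -0.24.

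Other measures moved in the same libraries. The median of 74 mitochondrial ribosomal protein genes was -0.37 in skin static 2, -0.19 in skin flow 2 and 0.12 in tendon static 3, and that of 43 cytosolic ribosomal protein genes was -0.13, -0.12 and 0.19. Glycolysis genes were at -0.32 in tendon static 3. The log2 difference between the 3' and 5' probe sets of beta-actin on chip A, a sign of RNA quality, was 1.71 in skin flow 2, 1.63 in tendon flow 2 and 1.39 in tendon static 3, beside 0.65 to 1.36 in the others. For skin static 2 the scan record comments on a possibly higher concentration of the sample. The part of these in the tissue differences was not tested. With the actin difference as a covariate, or the scan batch as a block, 0 members were called between static tissues. The main fit also called 0, so this count cannot show that part.

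Among the genes tested, 1 is a mitochondrially encoded subunit, ND5 of complex I. It measured 11.95, 10.47 and 12.43 in cornea flow against 11.08, 12.40 and 12.42 in cornea static libraries, while the 12 tendon and skin libraries lay between 11.66 and 12.47. The low values, cornea flow 2 and cornea static 1, came from 1 culture day. In these libraries the nuclear complex I subunits had medians of -0.04 and -0.18, beside ND5 deviations of -1.55 and -0.94, each from the gene's own mean. ND5 did not pass the test for flow (average difference -0.21, limma adjusted p = 0.77).

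Genes around the chain gave few calls. For flow, the pyruvate dehydrogenase kinase Pdk4, which slows the entry of pyruvate into the citric acid cycle, rose by 1.15 on the log2 scale on average (limma adjusted p = 0.0025). It measured 8.11, 7.75 and 7.83 in tendon flow against 6.68, 6.25 and 6.70 in tendon static, 8.23, 8.68 and 7.71 in cornea flow against 7.47, 7.85 and 6.64 in cornea static, and 7.10, 7.86 and 7.32 in skin flow against 5.84, 6.31 and 6.52 in skin static libraries. Its flow and static values overlapped in cornea only. Of 23 genes of that cycle and its entry it was the only one called for the average flow response, and 8 of the 23 were positive (median -0.03). Glycolysis genes (16 measured, median 0.10) and hypoxia genes (16, median 0.04) had 0 called.

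Between static tissues, the chaperone Bcs1l, which inserts the Rieske protein into complex III, was higher in tendon than in skin (8.95, 8.80 and 8.96 against 8.39, 8.20 and 8.56; 0.52, limma adjusted p = 0.034). The coactivator Ppargc1a, which drives mitochondrial biogenesis, was higher in static cornea (5.52, 6.11 and 6.04) than in static skin (5.29, 5.26 and 5.13), by 0.66 (adjusted p = 0.022), at low signals. Of 16 regulators of biogenesis measured it was the only one called there. Glycolytic phosphofructokinase Pfkp fell by 0.80 in static tendon against static skin (adjusted p = 0.022). Mitochondrial ribosomal proteins had medians of 0.17 for static tendon and 0.12 for static cornea against static skin, beside the members' 0.14 and 0.09. In each comparison 63 of the 74 were positive and 0 were called, beside 75 and 69 of the 90 members positive. Cytosolic ribosomal proteins had medians of 0.06 and 0.05, with 33 of 43 positive in each comparison. Genes of the citric acid cycle and its entry had -0.01 (11 of 23 positive) in tendon and 0.25 (20 of 23) in cornea. Genes of ATP export, porin and mitochondrial import had -0.05 (10 of 23) and 0.10 (16 of 23).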

How the data were processed

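Per the submitters' processing notes the deposited log2 values come from RMA, and each chip's table holds its 18 arrays. No source used here gives the RMA version. Of 22690 probe sets on chip A and 22575 on chip B, those with 1 symbol were reduced to 1 per gene: chip A before B, a name marking cross-hybridisation only where the gene had no other, then the highest mean (12393 and 5800 genes). Of the members 84 came from chip A and 6 from chip B, 5 on cross-hybridising names, 51 have several probe sets. The 6 group means were fitted per chip with limma 3.58.1 in R 4.3.3 (12 residual degrees of freedom, prior 4.52 and 3.95) and tested on simulated data. Benjamini-Hochberg adjustment ran over all 18193 genes, with calls below 0.05, intervals of 95% and unadjusted p-values as limma gives them. Members and gene lists were chosen with earlier results of these data known. Named members are those of the largest differences per comparison, 10 main subunits and isoform genes, other lists giving up to 3 called genes; further members and the 4 promoters were picked with their values in view. Flow and static libraries of 1 culture day correlated at 0.37 to 0.76 in their deviations from group means. Culture days come from the scan records; the replicate 1 pairs of tendon and skin share a session with no noted day. Same replicate numbers mark these pairs in tendon, in skin and for cornea 3 (7 of 9); for cornea 1 and 2 same-numbered libraries correlated at -0.22 and -0.44, so the number was not used as the pairing. Alternatives were the probe set choice, a filter at 6, a trended prior, equal medians, blocks of replicate, culture day and scan batch, actin as covariate and leaving out each library.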

Additional observations from a re-analysis of the deposited data

How the results depend on the processing

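No member was called under any alternative except these. With the culture day as a block 1 member was called for the average flow response (Ndufaf7, 0.33, limma adjusted p = 0.016), and also 1 when tendon static 3 was left out of that fit, an alternative chosen after seeing the data (0.30, adjusted p = 0.028). Leaving out 1 library gave 0 to 2 called members for static tendon against static skin and 0 to 1 for static tendon against static cornea, the highest count each time without tendon static 2. Over the libraries left out, member medians ran between -0.09 and 0.08 for flow in cornea, -0.01 and 0.06 for flow in skin, 0.04 and 0.17 for static cornea against static skin, and -0.01 and 0.16 for static tendon against static cornea. With the replicate number as a block, which matches the culture day in tendon and skin but not for cornea 1 and 2, 0 members were called in every comparison.

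Signs turned for a few named genes. The probe set of highest mean whatever its name gave Ndufab1 0.08 in tendon and 0.13 on average under flow, and Uqcrq 0.00 in skin under flow and 0.09 for static cornea against static skin. Over the libraries left out, Ndufaf1 in tendon flow ran between -0.01 (without tendon flow 1) and 0.26, Cox4i2 in skin flow between -0.26 and 0.01 (skin flow 1), Ndufa10 in static tendon against skin between -0.20 and 0.07 (tendon static 3), Ndufa6 in static tendon against cornea between -0.01 (tendon static 3) and 0.87, Ndufc2 between tendon and skin under flow between -0.12 (skin flow 2) and 0.64, and Ndufaf7 between cornea and skin under flow between -0.39 and 0.01 (skin flow 1). The cause of these shifts was not tested. Counted as probe sets, 0 of 179 were called for average flow, static tendon and static cornea against skin, and probe sets of 1 gene had the same sign in 21, 34 and 30 of 51 genes.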
